A study of Saccharomyces cerevisiae with 11 samples.

Results

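The nuclear genes for the mitochondrial respiratory chain and the ATP synthase were followed in 11 libraries of micrococcal nuclease (MNase) sequencing from galactose-grown Saccharomyces cerevisiae. The set held 35 protein-coding genes chosen by function, of 5960 open reading frames (ORFs) measured. It comprised 4 genes of complex II, 9 of complex III, the cytochrome c gene CYC1, 8 of complex IV and 13 of the ATP synthase (complex V). MNase cuts DNA that is not wrapped in a nucleosome, so the fragments that survive map where nucleosomes sit. For each gene the promoter was taken as the 250 bp before the start codon and the body as the whole ORF. Coverage was expressed relative to the mean of the nuclear chromosomes without the ribosomal DNA, so that 1 is the nuclear average.

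The cells were of the BY4742 background, and in all of them both DNA topoisomerases, Top1 and Top2, carried an auxin-inducible degron (AID). The degron leads to loss of the tagged protein only in cells that hold auxin together with OsTIR1, a plant F-box protein. There were 3 states: OsTIR1 cells given 500 uM auxin for 60 min, OsTIR1 cells left untreated, and cells of a strain without OsTIR1, also untreated. OsTIR1 was driven by the ADH1 promoter, and per the growth protocol the auxin-treated and the untreated cells came from a culture that was split. Fixed spheroplasts were digested with 0.1875 U (high dose) or 0.01171875 U (low dose) of MNase. By the labels, OsTIR1 with auxin had 2 libraries at the high and 1 at the low dose, untreated OsTIR1 had 2 and 2, and the strain without OsTIR1 had 2 and 2. The study asked how nucleosomes are placed when the topoisomerases are depleted. Coverage of the tagged genes cannot show that depletion, because the degron acts on the protein.

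The labels and the names of the deposited files disagreed on the dose for 4 libraries: auxin low replicate 1, auxin high replicate 1, untreated low replicate 2 and untreated high replicate 2. For untreated high replicate 2 the file name also gave auxin where the label gave none. The libraries fell into 6 with a mean fragment of 129 to 140 bp and 5 with a mean fragment of 149.8 to 162.2 bp. This split matched the dose in the file name in 11 of 11 libraries. Short fragments and a small mitochondrial share (0.0750% to 0.412% of fragments, against 3.41% to 20.6% in the long-fragment libraries) went together. The states were therefore compared among the 6 short-fragment libraries, 2 per state, in which label and file name gave the same state. The digestion comparison used the 7 libraries whose label and file name matched throughout. Untreated high replicate 2 entered no main comparison. The body of HIS3, a marker gene, was at 0 to 0.000349 in all OsTIR1 libraries, untreated high replicate 2 included, and at 0.211 to 0.385 in the strain without OsTIR1. That marker therefore separates the strains but not the auxin states. Each library held 9220720 to 31178329 fragments and a mean nuclear coverage of 111 to 332 fragments per base. Nothing in the labels says that replicates came from separate cultures, so the p-values measure the spread between these libraries.

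Electrons enter the yeast chain from succinate through complex II and from NADH through single-protein dehydrogenases, pass through complex III and cytochrome c, and reach oxygen at complex IV. The proton gradient built by complexes III and IV drives the ATP synthase. Most of the subunits are encoded in the nucleus, and their genes are known to be repressed by glucose and activated on other carbon sources through the Hap2/Hap3/Hap4/Hap5 complex, whose Hap4 subunit limits its activity. Galactose relieves much of that repression. The haem-responsive activator Hap1 also acts on several of these genes, and laboratory strains related to S288C, BY4742 included, carry a transposon insertion in HAP1 that weakens it.

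The genes are small and scattered. They lie on 13 of the 16 nuclear chromosomes, their median length was 447 bp against 1203 bp over all ORFs, and 18 of 35 (51.4%) were under 450 bp, against 12.2% of all ORFs. The shortest ORFs, of 180 bp, were those of COX9 (chromosome IV, 334217 to 334396, minus strand) and ATP18 (chromosome XIII, 103983 to 104162, minus strand), and the longest, of 1923 bp, was SDH1 (chromosome XI, 169207 to 171129, minus strand). Coordinates are those of assembly R64, which is sacCer3, the build in the submitters' processing notes. Of the nearest upstream ORFs, 22 lay in the same direction and 13 pointed away. The 250 bp promoter overlapped no other ORF in 31 genes. The exceptions were COX6 (171 bp), ATP2 (120 bp), ATP19 (25 bp) and QCR7 (8 bp). QCR9 and QCR10 contain an intron, which is counted in their bodies.

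The bodies of these genes carried less nuclease-resistant DNA than most ORFs, and with auxin they carried more. In the short-fragment libraries the median body of the 35 genes stood at 1.05 and 0.965 with auxin, at 0.861 and 0.877 in untreated OsTIR1 cells, and at 0.894 and 0.865 without OsTIR1. Over all ORFs the same 6 libraries had medians between 1.04 and 1.06. Among the 4 long-fragment libraries of undisputed state, the auxin library was again highest, with 0.736 against 0.582 untreated and 0.600 and 0.495 without OsTIR1. All ORFs had medians there of 0.870 with auxin, 0.828 untreated, and 0.813 and 0.760 without OsTIR1. The gap between these bodies and the average ORF was thus narrower with auxin in both fragment classes. Over all 5957 bodies in the short-fragment libraries, auxin minus untreated tended to be higher where the level without OsTIR1 was lower (Pearson's r -0.50). Across the 35 genes r was -0.31. The 35 genes were not tested against other ORFs of similar level.

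**Figure D1:**
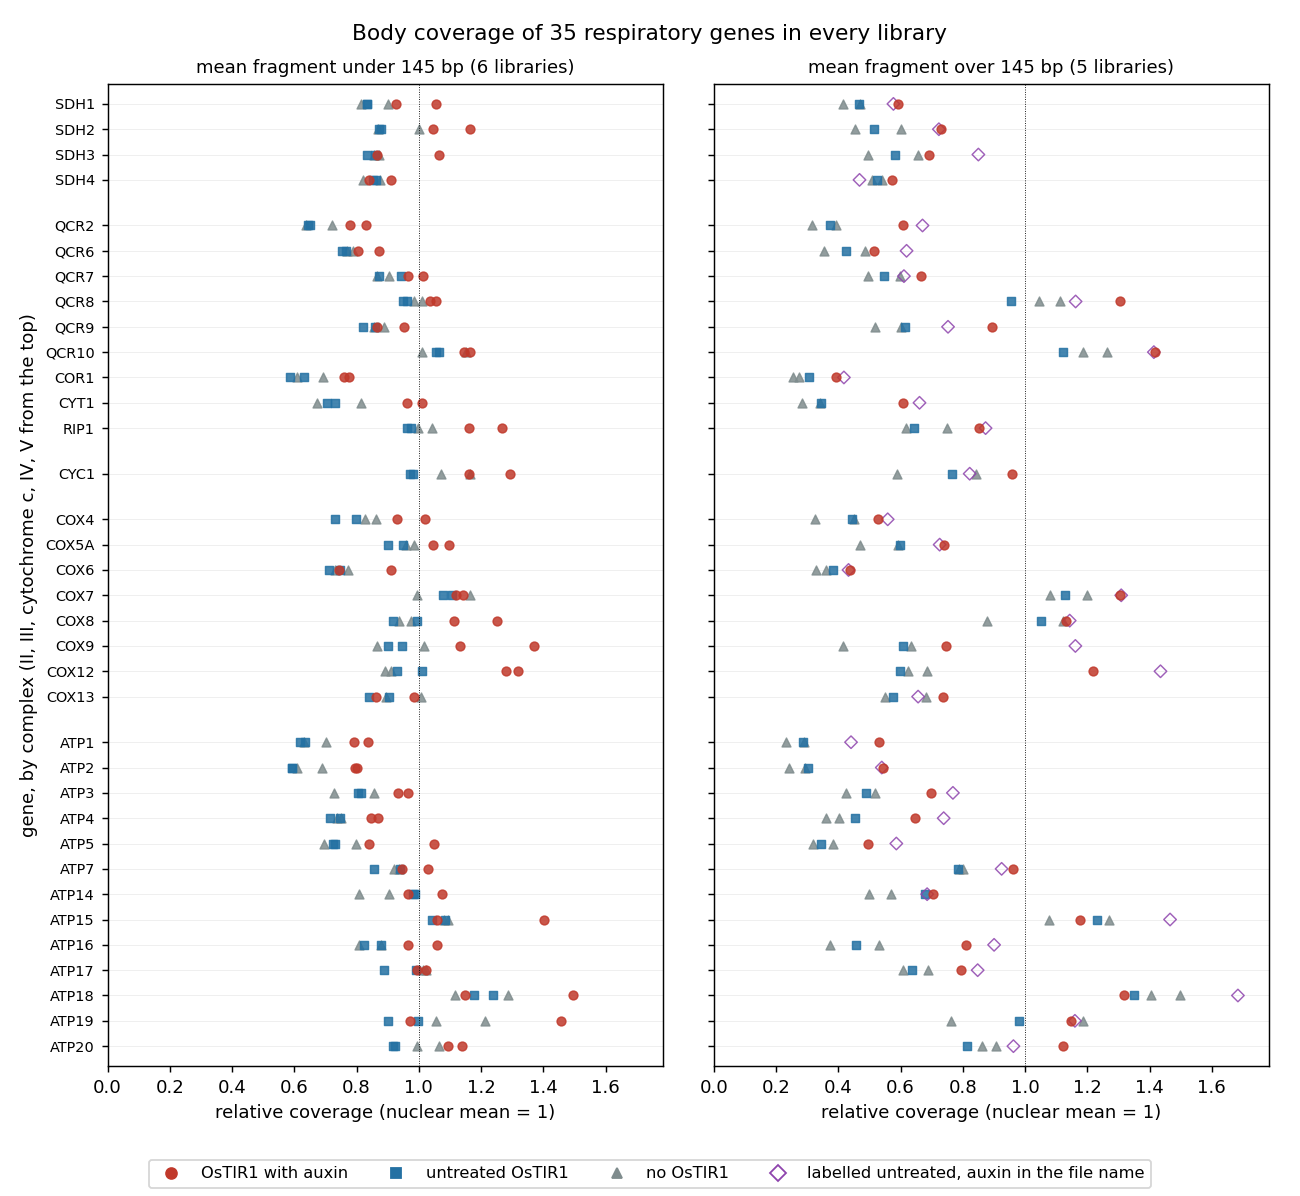
Relative coverage of the body of each of the 35 genes (horizontal axis, nuclear mean 1) in every library, with genes down the page by complex. Points are single libraries, coloured by state, with short-fragment libraries on the left and long-fragment libraries on the right. In the left panel the auxin points lie to the right of both untreated points in 28 genes, and in the right panel the auxin point lies to the right of the untreated one in 33.

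In the 6 short-fragment libraries, the body difference between auxin and untreated OsTIR1 cells was above 0 in 35 of 35 genes, with a median of 0.21 (log2 of relative coverage plus 0.1). Over all 5957 bodies tested, 48.7% were above 0 and the median was -0.0028. Of the 35 bodies, 8 rose past the threshold and 0 fell, against 3.09% of all bodies higher and 0.302% lower (limma, Benjamini-Hochberg adjusted p under 0.05 over all bodies). A further 13 had an unadjusted p under 0.05, which makes 21 of 35 in all, all of them higher, against 816 higher and 524 lower of the 5957 bodies. Both auxin libraries lay above both untreated libraries in 28 bodies (27.4% of all), and below them in 0 (29.8% of all). Both lay above all 4 control libraries in 22 bodies (20.8% of all). The auxin libraries had slightly shorter fragments (129.0 and 129.3 bp) than the untreated ones (131.1 and 132.4 bp). With the mean fragment length as a covariate, 33 of 35 differences stayed above 0 with a median of 0.18, but 0 genes and 8 of all bodies passed the threshold, and 910 of all bodies had an unadjusted p under 0.05. With the fragment class as a term in 10 libraries of both classes, 35 of 35 were above 0, and 6 of the 35 and 188 of all bodies passed the threshold. The count past the threshold fell in most fits that left out a single library, and rose without auxin high replicate 2. In each of these fits 1 state holds 1 library. The median difference of the 35 was 0.17 without auxin low replicate 1 and 0.29 without auxin high replicate 2. It was 0.22 without untreated high replicate 1 and 0.21 without untreated low replicate 2. Over all bodies these medians were -0.014, 0.012, -0.011 and 0.0044. Between 31 and 35 of the 35 differences stayed above 0. With all 11 libraries, 0 of the 35 passed when grouped by the labels (34 above 0) and 12 when grouped by the file names. Over all bodies 0 passed by the labels and 428 by the file names.

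The 8 bodies that rose belong to complexes III, IV and V and to cytochrome c. CYT1, which encodes cytochrome c1 of complex III (chromosome XV, 447439 to 448368, plus strand), had the largest difference of these. Its body stood at 1.01 and 0.961 with auxin, at 0.705 and 0.731 untreated, and at 0.815 and 0.674 without OsTIR1. The auxin libraries were above all 4 others. The log2 difference from untreated was 0.41 ± 0.077 (SE, limma adjusted p = 0.0371), a 1.37-fold higher mean. RIP1, the Rieske iron-sulphur protein of the same complex, was 1.21 ± 0.0743 with auxin and 0.967 ± 0.00903 untreated (SD, n = 2 each), a log2 difference of 0.30 (limma adjusted p = 0.0314).

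In complex IV the bodies that rose were COX12 and COX4. COX12, a small subunit exposed to the intermembrane space, had 1.28 and 1.32 with auxin, 0.930 and 1.01 untreated, and 0.891 and 0.910 without OsTIR1. Its log2 difference was 0.39 ± 0.051 (SE, limma adjusted p = 0.0197), the smallest adjusted p of the 35 genes. COX4, a zinc-binding subunit (chromosome VII, 149704 to 150171, minus strand), had 1.02 and 0.931 with auxin, 0.732 and 0.798 untreated, and 0.862 and 0.828 without OsTIR1. Again the auxin libraries did not overlap any other, and the log2 difference from untreated was 0.31 ± 0.060 (SE, limma adjusted p = 0.0371).

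The alpha and beta subunits of the ATP synthase were both among the 8. ATP2, the catalytic beta subunit (chromosome X, 647607 to 649142, plus strand), had 0.796 and 0.801 with auxin, 0.593 and 0.594 untreated, and 0.689 and 0.608 without OsTIR1. ATP1, the alpha subunit (chromosome II, 37053 to 38690, plus strand), had 0.838 and 0.791 with auxin, 0.618 and 0.636 untreated, and 0.701 and 0.631 without OsTIR1. The replicates within each OsTIR1 state were close in both genes, and the auxin libraries did not overlap any other. The log2 differences were 0.37 ± 0.057 for ATP2 (SE, limma adjusted p = 0.0230) and 0.33 ± 0.057 for ATP1 (SE, limma adjusted p = 0.0293). ATP20, subunit g of the membrane sector, averaged 1.12 ± 0.0321 with auxin and 0.920 ± 0.00579 untreated (SD, n = 2 each), with a log2 difference of 0.25 (limma adjusted p = 0.0387).

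CYC1, iso-1-cytochrome c (chromosome X, 526335 to 526664, plus strand), had a body of 1.29 and 1.16 with auxin, 0.971 and 0.980 untreated, and 1.16 and 1.07 without OsTIR1. The auxin libraries were above the untreated ones, but the lower auxin library (1.161) was just under the higher library without OsTIR1 (1.163). Its log2 difference from untreated was 0.30 ± 0.061 (SE, limma adjusted p = 0.0445). In complex II no body passed the threshold. The nearest was SDH2, the iron-sulphur subunit, with 1.16 and 1.04 with auxin, 0.878 and 0.871 untreated, 0.999 and 0.869 without OsTIR1, and a log2 difference of 0.30 (limma adjusted p = 0.0659).

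Differences above 0 were found in all complexes. The median was 0.19 in complex II, 0.13 in complex III, 0.24 in complex IV and 0.21 in complex V. The smallest differences were those of SDH4 (0.027), a membrane anchor of complex II, ATP14 (0.044), a stalk subunit, and COX7 (0.047). By length, the median was 0.27 in the 17 genes of 450 bp or more, against -0.0071 over all ORFs of that length, and 0.12 in the 18 shorter genes, against 0.036. COX5A, the aerobic form of subunit Va, had 1.05 and 1.10 with auxin, 0.948 and 0.900 untreated, and 0.986 and 0.959 without OsTIR1 (limma adjusted p = 0.0736). COX6 had 0.912 and 0.744 with auxin, 0.747 and 0.711 untreated, and 0.731 and 0.773 without OsTIR1, so its states overlapped (limma adjusted p = 0.296). QCR8, a small subunit of complex III, had 1.04 and 1.06 with auxin, 0.950 and 0.963 untreated, and 0.985 and 1.01 without OsTIR1 (limma adjusted p = 0.173).

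The long-fragment libraries gave a separate view of the same comparison, with 1 library per state and so without a test. They were auxin high replicate 1 and untreated low replicate 1, so their labelled doses differed. Their mean fragments were of nearly equal length (150.1 and 149.8 bp). The body was higher with auxin in 33 of 35 genes (55.8% of all bodies), and the median log2 difference was 0.28 against 0.033 over all bodies. ATP15 and ATP18 were the 2 exceptions. COX12 had 1.22 with auxin and 0.598 untreated, a ratio of 2.03, and ATP1 had 0.529 with auxin and 0.285 untreated, a ratio of 1.85. ATP2 had 0.544 with auxin and 0.302 untreated, and CYT1 had 0.607 with auxin and 0.346 untreated. All 8 genes named above as having risen in the short-fragment libraries were higher with auxin here too. Across the 35 genes, Pearson's r between the short- and the long-fragment difference was 0.54, and over all bodies it was 0.47. This is a description across genes, which are not independent. The library labelled untreated high replicate 2, whose file name gives auxin, was above untreated low replicate 1 in 34 of 35 bodies (56.1% of all), with a longer mean fragment of 162.2 bp. A test of whether the auxin difference itself differed between the fragment classes called 0 bodies of 5957 and 0 promoters of 5956 (limma interaction, 10 libraries). The long-fragment auxin and untreated groups hold 1 library each in this fit, so they are taken to vary like the others, and 4 residual degrees of freedom remain. It called 110 bodies, 1 of them among the 35, without either long-fragment library lacking OsTIR1, and 8 bodies with all 11 libraries grouped by the file names. At an unadjusted p under 0.05 the test on 10 libraries gave 1190 bodies, 5 of them among the 35, and 431 promoters, 6 of them among the 35.

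The difference was also followed along the gene. In the 17 genes of 450 bp or more, each body was divided into 3 windows of equal length. The median log2 difference in the short-fragment libraries was 0.23, 0.28 and 0.24 from the start codon to the stop codon, against 0.0053, 0.0024 and -0.017 over the 5230 ORFs of that length. It was 0.047 in the 250 bp after the stop codon, against -0.024 over all, and 0.13 in the 150 bp before the start codon, against -0.029. From 250 to 150 bp upstream it was 0.095, against 0.062. In the long-fragment libraries the medians were 0.24, 0.40 and 0.55 over the 3 windows, against 0.033, 0.13 and 0.0057 for all. They were 0.096 downstream of the stop codon, against -0.16 over all, and -0.088 in the 150 bp upstream of the start codon, against -0.069. From 250 to 150 bp upstream the median was -0.13 for the 17 genes and -0.12 for all.

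**Figure D2:**
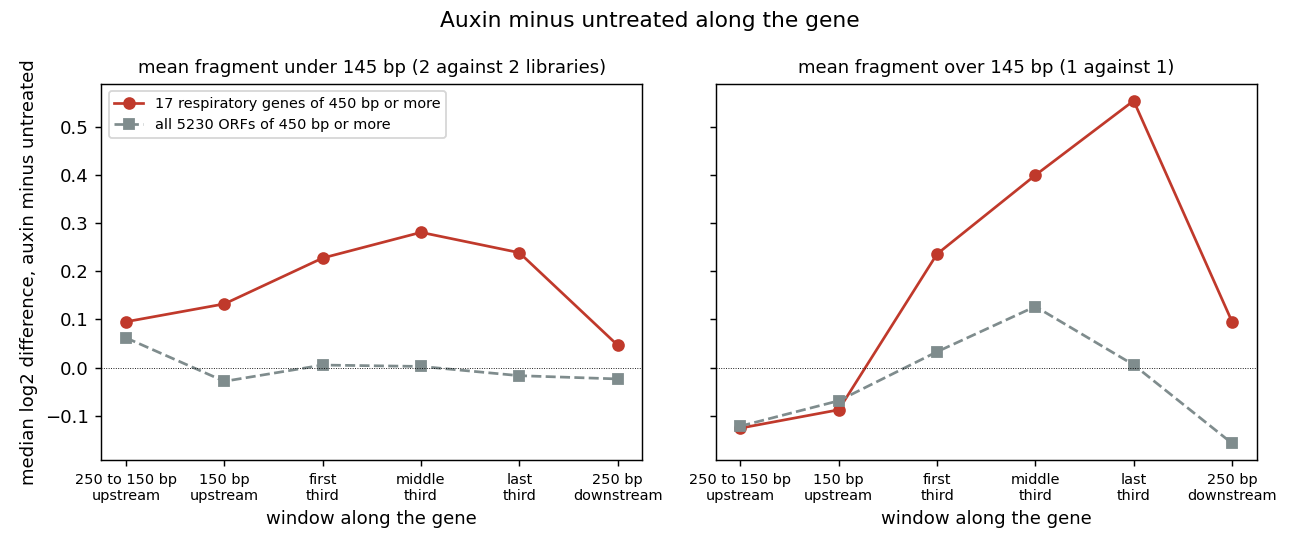
Median log2 difference of relative coverage, auxin minus untreated OsTIR1, in 6 windows from upstream of the start codon to downstream of the stop codon, for the respiratory genes of 450 bp or more (red circles) and all ORFs of that length (grey squares). Short-fragment libraries are on the left (2 against 2) and long-fragment libraries on the right (1 against 1); the red line is above the grey one in all 6 windows on the left, reaching 0.28, and on the right in the 4 windows from the start codon on, reaching 0.55.

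The level of the bodies differed widely among the genes. COR1 and ATP2 were lowest over the 6 short-fragment libraries, with 0.675 ± 0.0803 and 0.680 ± 0.0982 (SD, n = 6), followed by ATP1 with 0.702 ± 0.0927. These 3 lay at percentiles 2.26 to 2.69 of all ORF bodies. Their SDs are over libraries of all 3 states, and differences between the genes were not tested. COR1, a core protein of complex III, had 0.777 and 0.759 with auxin, 0.630 and 0.586 untreated, and 0.691 and 0.608 without OsTIR1 (limma adjusted p = 0.0504). The highest bodies were those of ATP18 (1.24 ± 0.138), ATP15 (1.13 ± 0.137) and CYC1 (1.11 ± 0.123; SD, n = 6 each). These SDs also span the 3 states, and the order of the 3 genes was not tested. The median percentile of the 35 bodies was 18.4, and 12 lay in the lowest 10% of all bodies. In the long-fragment libraries the median percentile was 18, again with 12 genes in the lowest 10%. Across the 35 genes the levels without OsTIR1 in the 2 fragment classes had a Pearson's r of 0.91, against 0.42 over all ORFs, as a description across genes. By rank the contrast was smaller, with a Spearman's rho of 0.92 against 0.71.

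Promoters behaved differently from bodies with digestion. Most were covered above the nuclear mean in the long-fragment libraries and below it in the short-fragment ones. The median promoter of the 35 genes was at 0.632 and 0.669 with auxin, 0.565 and 0.569 untreated, and 0.576 and 0.657 without OsTIR1 in the short-fragment libraries. In the long-fragment libraries it was at 1.34 with auxin, 1.40 untreated, and 1.33 and 1.60 without OsTIR1. Over all promoters the medians were 0.784 to 0.880 with short and 1.25 to 1.48 with long fragments. In 31 of 35 genes every long-fragment library was above every short-fragment one (74% of all promoters). The others were COX4, COX9, ATP1 and ATP2.

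**Figure D3:**
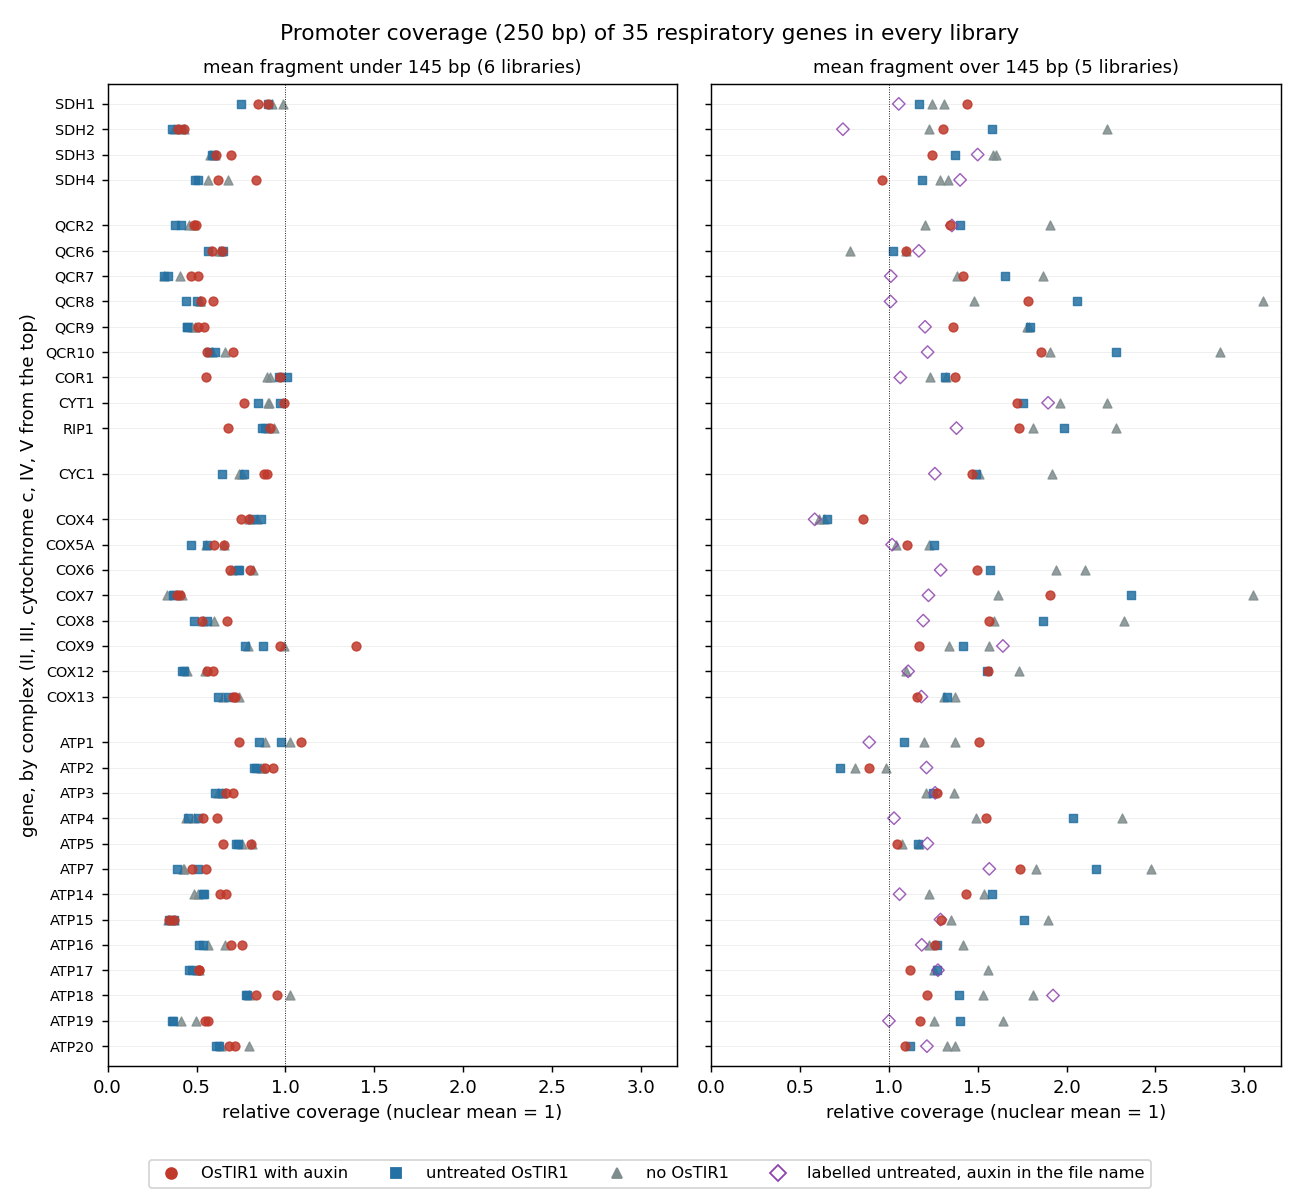
Relative coverage of the 250 bp promoter of each of the 35 genes (horizontal axis, nuclear mean 1) in every library, with genes down the page by complex. Points are single libraries, coloured by state. Most genes lie under 1 in the short-fragment panel (left) and over 1 in the long-fragment panel (right), and COX7 and QCR8 have the points farthest to the right, above 3 in 1 library without OsTIR1.

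Between the doses, tested in the 7 libraries whose labels and file names matched, 33 of the 35 promoters fell with the high dose and 1 rose (limma, adjusted p under 0.05), against 82.3% of all promoters lower and 4.11% higher. The median log2 difference, high minus low, was -1.07 for the 35 promoters and -0.74 for all. The auxin library, the only one of its state here, adds nothing to this difference in the fit. With all 11 libraries, 0 of the 35 promoters passed when grouped by the labels and 34 when grouped by the file names. Of all 5956 promoters, 0 passed by the labels and 5307 by the file names. COX7 fell most. Its promoter had 0.409 at the high dose with auxin, 0.370 untreated, and 0.332 and 0.419 without OsTIR1, while at the low dose it had 2.36 untreated and 1.61 and 3.05 without OsTIR1. The doses did not overlap, and the log2 difference was -2.33 ± 0.15 (SE, limma adjusted p = 7.07e-14). ATP7, subunit d of the ATP synthase stator, had 0.554 with auxin, 0.508 untreated, and 0.428 and 0.426 without OsTIR1 at the high dose, against 2.17 untreated and 1.83 and 2.47 without OsTIR1 at the low dose (log2 difference -2.02). QCR7 (-1.93) and ATP15 (-1.92), the epsilon subunit of the ATP synthase, followed. The 2 low-dose libraries without OsTIR1 differed from each other by as much as -1.02 on the log2 scale in single promoters (replicate 1 minus replicate 2), so the spread at the low dose was wide.

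COX4 went the other way. Its promoter had 0.794 at the high dose with auxin, 0.810 untreated, and 0.796 and 0.840 without OsTIR1, against 0.652 untreated and 0.608 and 0.633 without OsTIR1 at the low dose. The high-dose values were all above the low-dose ones, with a log2 difference of 0.32 ± 0.11 (SE, limma adjusted p = 0.00717). Scaled to the median ORF body in place of the nuclear mean, the difference was -0.018 (adjusted p = 0.897), a scaling under which the median of all promoters was -1.10. With a promoter of 400 bp it was 0.024. The promoter of ATP2, of which 120 bp lie in the ORF DMO1, was the only one that did not pass the threshold (log2 difference 0.033, limma adjusted p = 0.787). CYC1 and COX6 fell by 1.02 and 1.20 on the log2 scale, SDH2 and QCR8 by 1.78 and 1.91, COX5A by 0.89 and ATP1 by 0.31.

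Bodies moved the other way from promoters. With the high dose 28 of the 35 bodies rose and 1 fell (limma, adjusted p under 0.05), against 73.4% of all bodies higher and 10.9% lower. The median log2 difference was 0.61 for the 35 bodies and 0.36 for all, and in those of 450 bp or more it was 0.75 against 0.38. Scaled to the median ORF body, the median over all bodies was 0.0036 and that of the 35 was 0.27, with 23 of the 35 higher and 8 lower past the threshold, and 2153 of all bodies higher and 2136 lower. ATP1 rose most. Its body had 0.791 at the high dose with auxin, 0.618 untreated, and 0.701 and 0.631 without OsTIR1, against 0.285 untreated and 0.289 and 0.233 without OsTIR1 at the low dose. The log2 difference was 1.02 ± 0.077 (SE, limma adjusted p = 3.14e-05). COR1 (0.98), CYT1 (0.97) and ATP2 (0.95) followed, so the 3 lowest bodies were among the 4 with the largest rise. ATP18, a small membrane subunit, was the body that fell, with 1.15 at the high dose with auxin, 1.18 untreated, and 1.12 and 1.29 without OsTIR1, against 1.35 untreated and 1.50 and 1.40 without OsTIR1 at the low dose (log2 difference -0.23, limma adjusted p = 0.00886). The 6 bodies that did not pass the threshold were those of COX7, COX8, QCR8, QCR10, ATP15 and ATP19, all under 450 bp. Over all ORFs under 450 bp the median body difference was 0.0098.

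**Figure D4:**
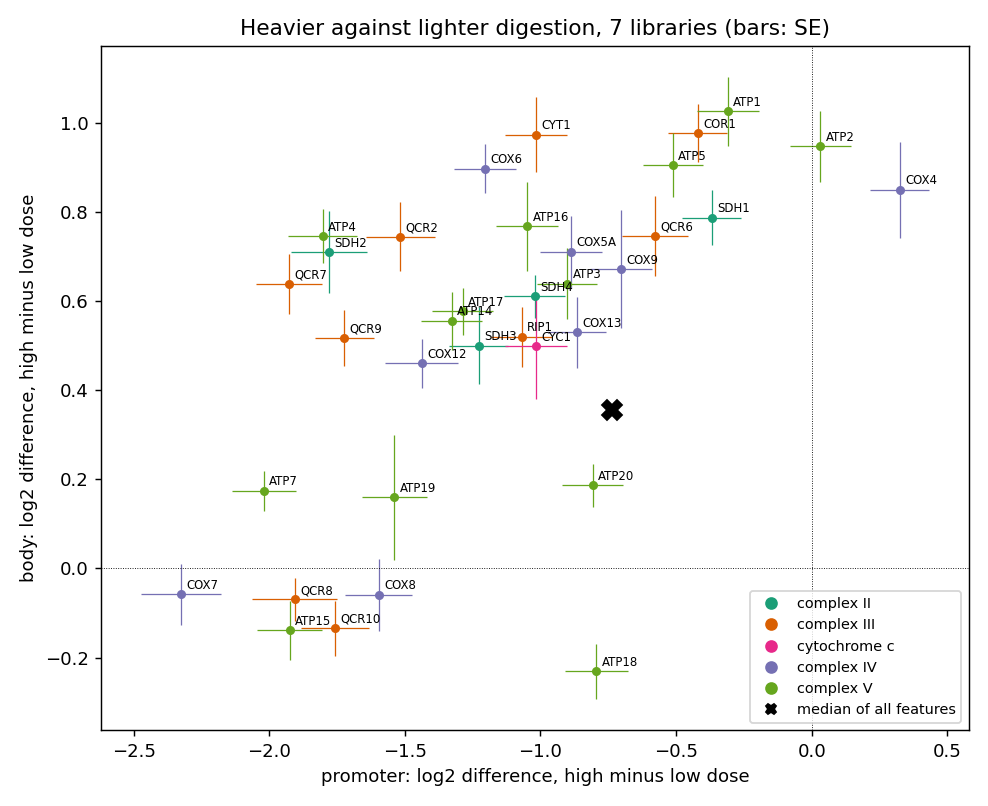
Log2 difference of relative coverage between the high and the low dose in the promoter (horizontal axis) and the body (vertical axis) of each of the 35 genes, coloured by complex, with SE bars from the fit over 7 libraries; the black cross is the median of all promoters and bodies. Most genes lie above and to the left of the cross, COX7 is farthest left at -2.33, ATP1 is highest at 1.02, and COX4 is the gene farthest to the right at 0.32.

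The mean profile around the start codon showed where the promoter fragments lay. In the short-fragment libraries the 35 genes had a trough of 0.349 and 0.399 with auxin, 0.330 and 0.303 untreated, and 0.316 and 0.373 without OsTIR1, 166 to 188 bp upstream of the start codon. Over all ORFs the trough was at 0.556 to 0.631, 134 to 142 bp upstream. The first peak at the start codon was 1.31 and 1.19 with auxin, 1.11 and 1.09 untreated, and 1.10 and 1.16 without OsTIR1, against 1.27 to 1.31 over all ORFs. The profile of the 35 genes was followed for 600 bp from the start codon, which runs past the stop codon of the shorter genes. In that stretch it dropped no lower than 0.847 and 0.834 with auxin, 0.731 and 0.710 untreated, and 0.754 and 0.755 without OsTIR1. The 2 auxin profiles were thus above the other 4 at the peak and at this low point. In the long-fragment libraries no trough was seen there, and the mean profile stood above the nuclear mean. Its highest point upstream of the start codon was 1.63 with auxin, 1.87 untreated, and 1.98 and 2.12 without OsTIR1, 245 to 315 bp upstream, against 1.42, 1.60, 1.71 and 1.77 over all ORFs in the same libraries.

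**Figure D5:**
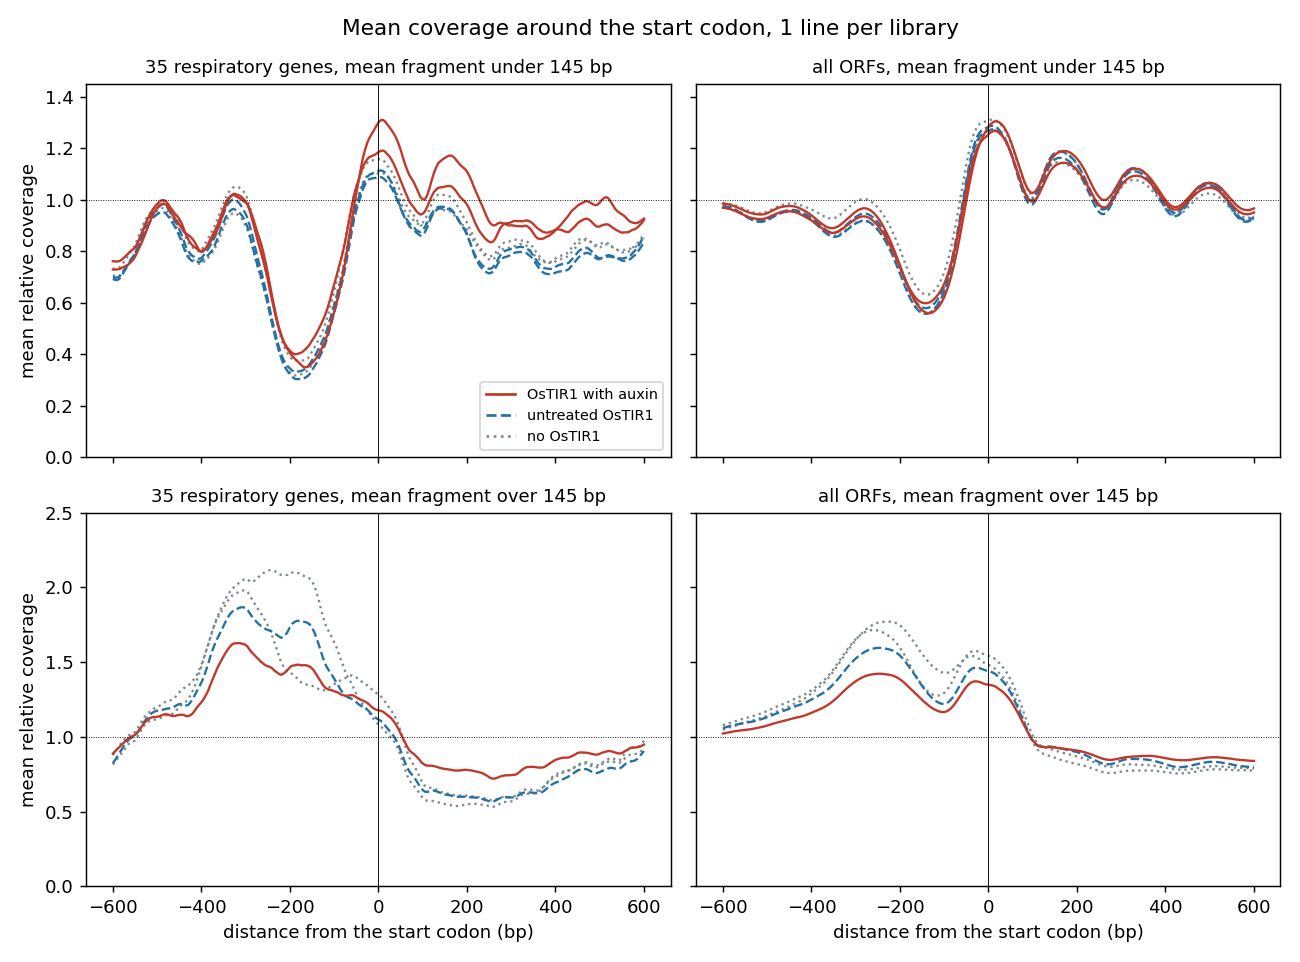
Mean relative coverage (vertical axis) by distance from the start codon in bp (horizontal axis) for the 35 genes (left) and all ORFs (right), smoothed over 21 bp, in short-fragment libraries (top) and long-fragment libraries (bottom, untreated high replicate 2 not drawn). Each line is 1 library, coloured by state. In the top left panel the auxin lines are above the others at the first peak and at the low point after the start codon. That stretch runs past the stop codon of the shorter genes. The all-ORF lines at the top right lie close together.

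For single genes, the lowest point within 600 bp upstream of the start codon, as the median over the short-fragment libraries, ran from 0.0054 in ATP7 to 0.147 in COX9, with a median of 0.0483, and was under 0.1 in 33 of 35 (64.8% of all ORFs, whose median was 0.0691). It lay within the 250 bp promoter in 21 genes and farther upstream in 14. In some genes the position of the lowest point varied between libraries, as in ATP16 (153 to 572 bp upstream) and QCR6 (235 to 600 bp). The ORF of PHO4, which runs in the same direction as QCR6, ends 250 bp upstream of it. COX4, ATP1, ATP2, COR1 and CYC1 were among the 14, with their lowest points 395 to 591.5 bp upstream, that of COX4 at the edge of the range searched. COX7, QCR7 and ATP15 were among the 21, with theirs 150.5 to 184.5 bp upstream. The lowest promoters over the short-fragment libraries were ATP15 (0.359 ± 0.0165), COX7 (0.383 ± 0.0311) and QCR7 (0.394 ± 0.0815; SD, n = 6 each), at percentiles 2.74 to 3.95 of all promoters. The SDs span the 3 states, and the order of these promoters was not tested. The highest were COX9 (0.966 ± 0.230), ATP1 (0.927 ± 0.128) and CYT1 (0.896 ± 0.0815). The median percentile of the 35 promoters was 19.4 with short and 54.2 with long fragments.

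No promoter among the 35 changed past the threshold with auxin (limma), against 0.487% of all promoters. At an unadjusted p under 0.05 there were 8 higher and 1 lower, against 325 higher and 315 lower of all 5956 promoters. In the short-fragment libraries 29 of 35 differences were above 0 (48.0% of all), with a median log2 difference of 0.12 against -0.0090 over all promoters. Both auxin libraries were above both untreated ones in 21 promoters (21.4% of all). ATP19, subunit k of the ATP synthase, was nearest to the threshold with a log2 difference of 0.50 (limma adjusted p = 0.0954). In the long-fragment libraries the direction was the other way for most: the promoter was lower with auxin in 27 of 35 (69.4% of all), with a median of -0.17 against -0.10. CYC1 had 0.894 and 0.878 with auxin, 0.768 and 0.642 untreated, and 0.739 and 0.757 without OsTIR1 with short fragments, and 1.47 with auxin, 1.49 untreated, and 1.51 and 1.92 without OsTIR1 with long fragments. In the body, by contrast, both fragment classes gave higher values with auxin.

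Between untreated OsTIR1 cells and the strain without OsTIR1, no promoter and no body of the 35 passed the threshold (limma, short-fragment libraries), against 0.0504% of all promoters and 0.0168% of all bodies. At an unadjusted p under 0.05 there were 1 promoter and 3 bodies, against 74 of all 5956 promoters and 178 of all 5957 bodies. The body was lower in untreated OsTIR1 cells in 26 of 35, with a median log2 difference of -0.039 against 0.0041 over all bodies, of which 54.1% were above 0. This direction changed with the grouping: with all 11 libraries 22 of 35 were above 0 by the file names (median 0.014) and 29 by the labels (median 0.081). The medians over all bodies were then 0.031 by the file names and 0.045 by the labels. Against the strain without OsTIR1, which differs from the auxin-treated cells in OsTIR1 as well as in auxin, the auxin bodies were above in 33 of 35 with a median of 0.15, against 51.3% of all bodies above 0 and a median of 0.0029. This uses the same auxin libraries as the comparison with untreated cells.

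Other genes of the same pathway were counted from 4 lists, against 3.39% of all bodies past the threshold with auxin in either direction. Of 10 isoforms and other subunits, 0 bodies passed it (limma), 5 were above 0 and the median was 0.027. Of 37 assembly factors 1 rose, ATP22 (log2 difference 0.23, limma adjusted p = 0.0371), which in yeast is needed to translate a mitochondrial ATP synthase messenger, with 20 above 0 and a median of 0.016. Of 6 electron donors 1 rose, NDI1, the NADH dehydrogenase of the inner membrane. NDI1 had 0.955 and 0.906 with auxin, 0.689 and 0.706 untreated, and 0.740 and 0.685 without OsTIR1, with a log2 difference of 0.37 (limma adjusted p = 0.0210). Of the regulators HAP1 to HAP5, 0 of 5 bodies passed the threshold, all 5 were above 0 and the median was 0.062. HAP4 had 0.724 and 0.736 with auxin, 0.690 and 0.662 untreated, and 0.712 and 0.679 without OsTIR1 (limma adjusted p = 0.254). No test of a difference between these lists and the 35 genes was made.

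The isoform pairs had unequal differences. COX5B, the form of subunit V used with little oxygen, had a body of 0.909 and 0.831 with auxin, 0.844 and 0.783 untreated, and 0.873 and 0.823 without OsTIR1 (log2 difference 0.086, limma adjusted p = 0.420), where COX5A had a difference of 0.19. CYC7, iso-2-cytochrome c, the form used with little oxygen, had 1.35 and 1.37 with auxin, 1.50 and 1.54 untreated, and 1.44 and 1.34 without OsTIR1. Its log2 difference was -0.15 (limma adjusted p = 0.139), where that of CYC1 was 0.30. With digestion, the CYC7 body fell by 0.24 on the log2 scale (limma adjusted p = 0.0133), where that of CYC1 rose by 0.50. The differences between the members of each pair were not tested.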

How the data were processed

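Each of the 11 deposited files held, for 17 contigs, the authors' signal: whole-number fragment coverage at every base, from fragments of 95 to 225 bp per the file headers. The submitters' processing notes name Bowtie2 and sacCer3. Relative coverage is this signal over its average on the 16 nuclear chromosomes, ribosomal DNA excepted, in the same library. It has no absolute scale, so a rise in some places is balanced elsewhere. Gene positions came from a RefSeq table of assembly R64 without ORFs that lie in the ribosomal DNA or less than 1000 bp from an end (5960 of 6002 kept), and strand from the systematic name.

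Features whose relative coverage averaged 0.1 or more (5956 promoters, 5957 bodies; all 35 genes included) were tested on log2(relative coverage + 0.1), which understates changes of low features, with limma 3.58.1 in R 4.3.3. Two-sided p-values were adjusted over all promoters or all bodies, with a threshold of 0.05. The fitted procedure was tested on simulated data. Digestion was fitted with terms for dose and state, auxin and strain with a term for state, and the interaction with state by fragment class. Python 3.11.15 and numpy 2.4.6 were used for the rest, and matplotlib 3.10.9 for the plots.

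Values are given for the genes past the threshold with auxin (per library for the 5 largest differences), the 4 largest rises and falls with digestion, the 3 highest and lowest promoters and bodies, 8 examples from the complexes and 2 isoform pairs. The 35 genes and the lists were chosen with earlier results of these data known. Same-numbered replicates did not deviate together, so the numbers were not taken to pair samples. Alternatives covered pseudocount, filter, scaling, promoter and body limits, grouping by labels or file names, a fragment-length covariate, the fragment class as a term, a replicate block and leaving out each library. DNA sequence was not analysed here.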

Additional observations from a re-analysis of the deposited data

Results flagged for a closer look

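The library labelled untreated high replicate 2, which entered no main comparison because its file name gives auxin, had higher body coverage than the long-fragment untreated library (untreated low replicate 1) in 34 of the 35 genes, against 56.1% of all bodies. SDH4 was the exception. The median log2 difference was 0.30 for the 35 genes and 0.041 for all bodies. Auxin high replicate 1 had 0.28 and 0.033 in the same comparison. The median body of the 35 genes was 0.752 in untreated high replicate 2, 0.736 in auxin high replicate 1 and 0.582 in untreated low replicate 1. Mean fragments were 162.2 bp long in untreated high replicate 2, 150.1 bp in auxin high replicate 1 and 149.8 bp in untreated low replicate 1. The comparison is of single libraries and was not tested, and the state of the library cannot be settled from its label and file name.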

How the results depend on the processing

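With all 11 libraries grouped by their labels, 0 of the 35 genes passed the threshold in the auxin comparison of bodies. The same held for the digestion comparisons of promoters and of bodies, and 0 of all features passed in these fits. In that grouping both doses mix the fragment classes. For bodies with auxin, the count of 8 became 13 with the replicate block, 0 with the fragment-length covariate and 5 without the 2 short-fragment libraries of disputed dose, an alternative chosen after seeing the data. Leaving out each library in turn gave 0 to 23 such bodies, 0 to 7 promoters with auxin, 0 to 1 bodies in the interaction, 33 to 34 promoters and 28 to 31 bodies with digestion, and 0 in both strain comparisons. These fits have fewer samples, and a lone library is taken to vary like the other groups. With digestion, 4866 to 5231 of all promoters and 4693 to 5100 of all bodies passed in them. With the first and last 150 bp left out, 17 of 17 bodies passed with digestion, against 4694 of all 5226 bodies. Only 17 genes were long enough. Over all features, 202 bodies passed with auxin, against 0 by the labels, 428 by the file names, 8 with the covariate and 0 to 1169 when libraries were left out, and 29 promoters, against 0 to 44 under other settings and 4 to 874 when libraries were left out. The interaction could not be fitted without untreated low replicate 1 or auxin high replicate 1. The count of bodies with a difference above 0 with auxin was 35, and 31 to 35 when libraries were left out in turn. It was 30 without the 2 short-fragment libraries of disputed dose, an alternative chosen after seeing the data. This fit leaves 1 auxin and 1 untreated library. The median log2 difference there was 0.16 for the 35 genes, against -0.0077 over all bodies. Same-numbered libraries did not deviate together (correlations of -0.26 to 0.0047), and the labels do not say whether they share a culture. The block moved no other count among the 35 genes by more than 1.5 times. Over all features the block called 261 bodies with auxin, against 202 without it, and 3 promoters in the interaction, against 0 without it. Among the 18 named gene values, 238 of 315 alternatives kept direction and side of the threshold, 76 kept the direction only and 1 reversed, the COX4 promoter with digestion (-0.018 when scaled to the median ORF body). The cause was not tested. Precision is limited by the 1 to 2 libraries per state, since mean nuclear coverage was at least 111 fragments per base.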
